A study of Arabidopsis thaliana with 6 samples.

Results

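The heat shock proteins and heat shock factors of *Arabidopsis thaliana* were followed in seedlings treated with *Priestia megaterium* YC4-R4, a growth-promoting bacterium, and in mock-inoculated seedlings. The members were the genes whose short name text in the deposited table holds heat shock or HSP20-like and does not hold DNAJ, and 61 of the 19616 genes in the table matched. That text stands under a header shifted by 1 field in the table. The curator summaries under the neighbouring header matched 19 genes, of which 12 were shared, and the other 7 are described beside the members. By their names the members comprised 11 heat shock factors (HSFs), 1 HSF-binding protein, 1 HSP101, 5 HSP90 proteins, 15 HSP70 proteins, 3 HSP60 proteins and 25 HSP20-like proteins.

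All seedlings were wild-type Col-0, grown for 5 days on plates before transfer to soil. Treated seedlings received the bacteria in 0.45% NaCl at 24 h after transfer, and Mock seedlings received the NaCl solution without bacteria. Whole plants, roots and shoots together, were ground at an age of 13 days, which was 7 days after treatment (7 DAT). There were 3 libraries in each group. Each library is described as a biological replicate of whole seedlings, without the number of plants pooled. The p-values weigh the difference between the groups against the spread between libraries within them, which was estimated partly from all genes.

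Heat shock factors are transcription factors that bind inverted GAA repeats, the heat shock elements, and switch on chaperone genes when proteins unfold. HSP70 and HSP90 chaperones fold and mature client proteins also in unstressed cells, HSP60 chaperonins fold proteins inside mitochondria, HSP101 pulls apart aggregates, and small HSP20 proteins hold unfolding proteins until they can be refolded. Many of these families hold constitutive members, often named HSC for heat shock cognate, beside members that are made mainly after heat.

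The libraries held 15292377 to 21904205 counts in the Treated group and 10804936 to 20040520 in the Mock group. Levels are given as CPM, read counts scaled to the size of the library, after trimmed mean of M-values (TMM) scaling, whose factors ran from 0.9706 to 1.018. All 61 members passed the filter on low counts, and 56 had a CPM of at least 1 in all 6 libraries. The members together took 0.660% to 0.676% of the counts in Treated libraries and 0.588% to 0.613% in Mock libraries. Those ranges do not overlap. In ground whole plants, fewer cells of a type and less RNA per cell cannot be told apart.

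The heat shock genes did not move as a block. Of the 23 HSP90, HSP70 and HSP60 genes, 7 were modestly higher in Treated seedlings and 0 lower at the adjusted p. Of 11 heat shock factors 2 were lower, and none of the HSP20-like genes passed the test in either direction. Many HSP20-like genes were scarce, with wide standard errors, so changes of the size seen in the called chaperones could be missed there. At an adjusted p of at most 0.05 together with a fold of at least 1.5, 1 member was higher, against 1.73% of all 19615 genes tested, and 1 was lower, against 1.54%. Those shares of the members, 1.64% each, are near the share among all genes. At the adjusted p alone, 7 members were higher (11.5% of them, against 5.10% of all genes) and 2 were lower (3.28%, against 4.52%). The groups' libraries did not overlap for 21 members that were higher (34.4%, against 14.5% of all genes) and 9 that were lower (14.8%, against 13.8%). The median log2 fold change over the members was 0.05, beside -0.005 over all genes tested.

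**Figure D1:**
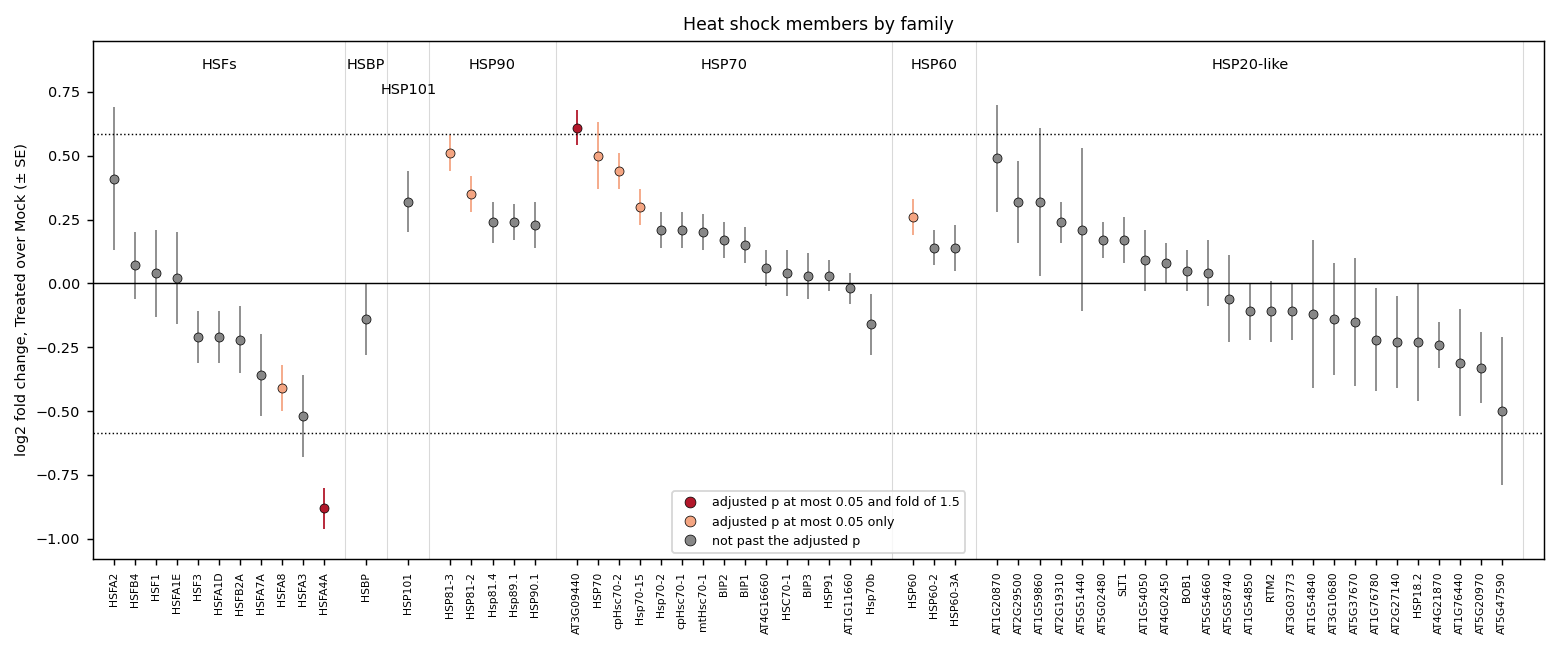
Log2 fold change (Treated over Mock, with its standard error) of each of the 61 members, grouped by family and ordered by size within each family. Dark red marks AT3G09440 and HSFA4A, past both limits, and light red marks the 7 members past the adjusted p alone. Dotted lines stand at a fold of 1.5 in either direction, and all 5 HSP90 genes lie above 0.

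*HSFA4A* (AT4G18880), a class A factor linked to oxidative and salt stress responses, was the member that fell furthest. In TAIR10.1 the gene occupies chr4:10347479-10349902 on the minus strand. Treated libraries held 29.3, 32.6 and 29.4 CPM of *HSFA4A*, and Mock libraries held 61.0, 51.3 and 55.3 CPM. Every Treated library lay well below every Mock library, and the means were 30.4 ± 1.90 CPM in Treated and 55.9 ± 4.85 CPM in Mock seedlings (SD, n = 3 each). Its log2 fold change was -0.88 ± 0.08 (SE), a fold of 0.544, with an adjusted p of 6.4e-05. It passed the adjusted p under all 14 alternative normalizations, filters, tests and left-out libraries.

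The 300 bases before the annotated start of *HSFA4A* (chr4:10349903-10350202, minus strand) are shown because this gene fell past both limits and its window holds a pair of inverted GAA units. Below it stand the same windows of *AT3G09440* (chr3:2905948-2906247, minus strand), the member that rose past both limits, and of *HSFA7A* (chr3:19264841-19265140, plus strand), chosen after its values were seen as the member with the most matches. All are written 5′ to 3′ from the TAIR10.1 assembly of RefSeq, with each match to GAANNTTC or TTCNNGAA in capitals.
HSFA4A: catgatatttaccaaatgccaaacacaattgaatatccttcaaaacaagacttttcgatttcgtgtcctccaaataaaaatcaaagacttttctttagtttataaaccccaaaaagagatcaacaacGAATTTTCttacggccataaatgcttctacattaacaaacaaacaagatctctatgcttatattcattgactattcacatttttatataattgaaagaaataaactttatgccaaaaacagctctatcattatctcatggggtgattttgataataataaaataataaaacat
AT3G09440: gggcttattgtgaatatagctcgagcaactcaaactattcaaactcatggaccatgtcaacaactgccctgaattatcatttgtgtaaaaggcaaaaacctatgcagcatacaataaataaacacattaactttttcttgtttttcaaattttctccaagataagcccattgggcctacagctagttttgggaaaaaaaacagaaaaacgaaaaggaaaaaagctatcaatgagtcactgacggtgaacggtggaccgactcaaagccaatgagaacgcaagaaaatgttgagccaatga
HSFA7A: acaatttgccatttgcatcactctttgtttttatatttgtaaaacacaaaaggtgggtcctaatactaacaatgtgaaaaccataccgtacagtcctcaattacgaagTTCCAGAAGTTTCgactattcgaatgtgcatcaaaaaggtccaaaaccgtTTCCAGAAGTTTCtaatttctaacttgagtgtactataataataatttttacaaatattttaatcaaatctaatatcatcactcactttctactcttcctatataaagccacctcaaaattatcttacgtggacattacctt

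The *HSFA4A* window holds 1 match, which starts 173 bases before the annotated start. The *AT3G09440* window holds none. The *HSFA7A* window holds 2 runs of 3 alternating units, in which a further unit follows a match at the same spacing, and these start 192 and 142 bases before the annotated start. Both motifs read the same on either strand, and overlapping matches were counted. At least 1 match stood in the windows of 14 of the 61 members (23.0%) and of 3735 of 19547 genes tested with a window of the same length (19.1%). Among the heat shock factors it was 4 of 11. Runs of 3 alternating units in either order stood in 3 members (4.92%), *HSFA2*, *HSFA7A* and *HSP90.1*, and in 0.506% of all windows. Of the 9 members past the adjusted p, 1 held a match, and it was *HSFA4A*. Annotated starts were taken as given, so a window can hold more than upstream sequence. A match describes these letters only, and binding was not measured.

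*HSFA8* (AT1G67970), another class A factor, had 21.9, 24.0 and 20.7 CPM in Treated libraries and 31.6, 25.8 and 30.6 CPM in Mock libraries. The lowest Mock library stood just above the highest Treated library. The log2 fold change of *HSFA8* was -0.41 ± 0.09 (adjusted p 0.0186). The call was lost without Treated replicate 1 (adjusted p 0.074), Treated replicate 3 (0.0699) or Mock replicate 3 (0.102). It was also lost with the replicate number as a block in the fit (adjusted p 0.064).

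The other 9 heat shock factors did not pass the adjusted p. *HSFA3*, which acts downstream of the drought and heat regulator DREB2A, had 3.90, 3.15 and 3.52 CPM in Treated libraries and 6.02, 4.69 and 4.74 CPM in Mock libraries. Its groups did not overlap, with a log2 fold change of -0.52 ± 0.16 and an adjusted p of 0.0695. edgeR's exact test alone gave it an adjusted p under the limit, at 0.0226. *HSFA7A*, a heat-induced factor, had 7.80, 9.57 and 7.30 CPM in Treated libraries and 13.6, 9.05 and 9.29 CPM in Mock libraries, where 1 Mock library stood apart (log2 fold change -0.36, adjusted p 0.213).

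The HSFA1 factors are the master regulators that start the heat response. *HSF1* (HSFA1A) and *HSFA1E* had log2 fold changes of 0.04 ± 0.17 and 0.02 ± 0.18, with overlapping libraries. *HSF3* (HSFA1B) and *HSFA1D* both stood at -0.21 ± 0.10 (adjusted p 0.242 and 0.247), and in each of these 2 genes the groups' libraries did not overlap. *HSFA2*, the amplifier of acquired thermotolerance, was scarce, with 0.953, 1.35 and 1.34 CPM in Treated libraries and 0.912, 0.740 and 0.999 CPM in Mock libraries (log2 fold change 0.41 ± 0.28, adjusted p 0.430). The class B factors lack the activation domain of class A. *HSFB2A*, a repressor, had a log2 fold change of -0.22 ± 0.13, and *HSFB4*, which is needed for root cell identity, of 0.07 ± 0.13. *HSBP*, whose product binds HSFs and ends the heat response, stood at -0.14 ± 0.14 (adjusted p 0.622).

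Of the 11 factors, 0 were higher and 2 lower at the adjusted p, against 5.10% and 4.52% of all genes tested. At an unadjusted p under 0.05, 0 were higher and 4 lower, where 12.1% of all genes tested were higher and 11.2% lower, and DESeq2, limma-voom and edgeR's exact test also called 0 higher. The family's median log2 fold change was -0.21, and its summed level was 120, 132 and 116 CPM in Treated libraries and 178, 153 and 161 CPM in Mock libraries. *HSFA4A* was the largest part of that sum in every library. *HSFA4C*, *HSFA5* and *HSFB2B* are in the table under a winged-helix name and so are not members. Their log2 fold changes were -0.19, -0.09 and 0.00, and none passed the test.

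**Figure D2:**
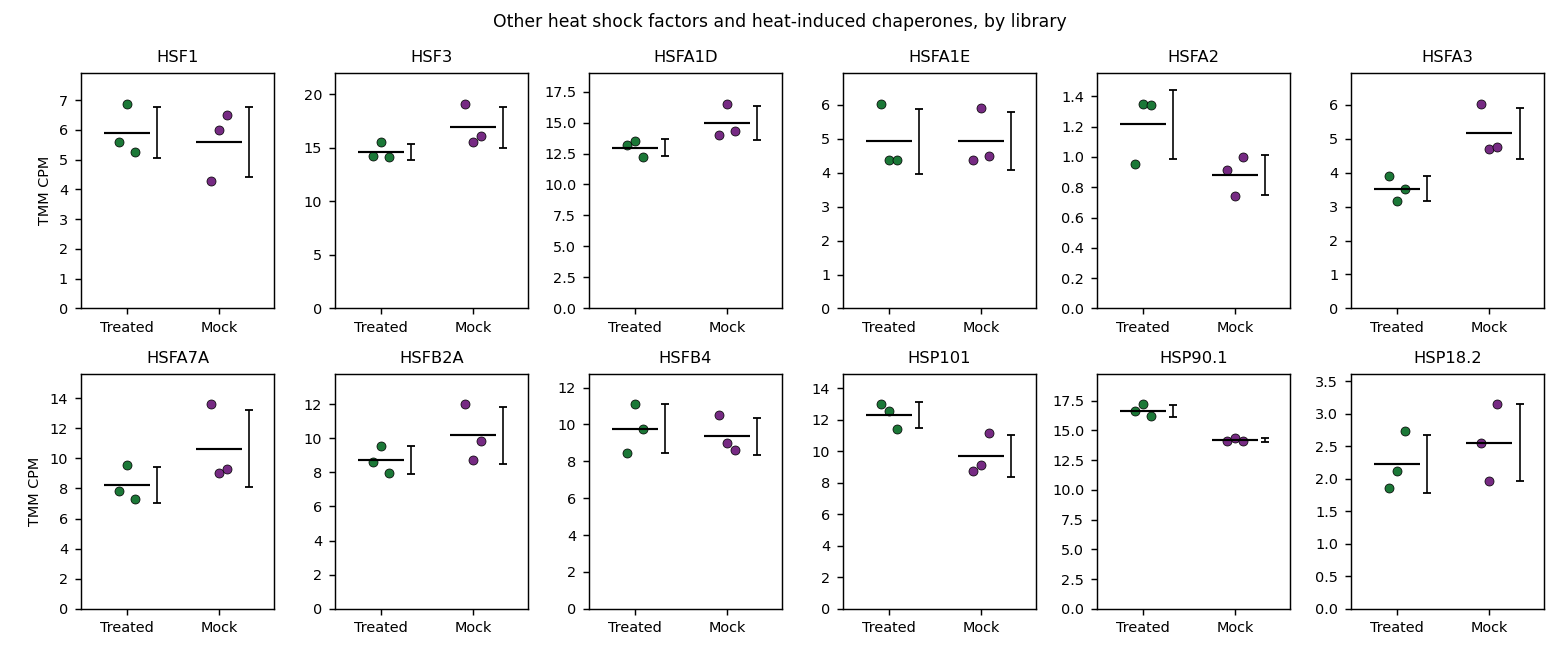
Levels in TMM CPM of the 9 heat shock factors not past the adjusted p and of 3 heat-induced chaperones, with Treated libraries left of Mock libraries. Points are libraries, lines are means and bars are the SD over 3 libraries. *HSFA3* had 3.52 CPM on average in Treated and 5.15 CPM in Mock libraries with no overlap, while *HSF1*, *HSFA1E* and *HSP18.2* overlapped between the groups.

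Lists of other stress genes, chosen with earlier results of these data known, were set beside the factors. Counts in these lists are therefore not independent tests. In a list of 14 genes that respond within minutes to wounding or touch, 13 passed both limits as lower in Treated seedlings. Of all genes tested, 1.54% did so. The median log2 fold change of the 14 genes was -1.01. The summed level of that list was 678 to 730 CPM in Treated libraries and 1176 to 1291 CPM in Mock libraries. The steepest were *CBF1*, a cold response activator, at -3.17 ± 0.22, *RRTF1* at -2.70 ± 0.19, and *ORA47*, a jasmonate synthesis activator, at -2.01 ± 0.12, and *SZF2* stood at -0.88 ± 0.07. The part of these genes in the lower *HSFA4A* and *HSFA8* levels was not tested. At the adjusted p, 5.10% of all genes tested were higher and 4.52% lower. Of 5 heat-induced genes other than chaperones, 1 was lower and 0 higher by edgeR, DESeq2 and limma-voom. By unadjusted p under 0.05 also 0 were higher, where 12.1% of all genes were. The lower gene was *DREB2A*, with 4.67, 4.43 and 4.86 CPM in Treated libraries and 6.93, 6.83 and 9.24 CPM in Mock libraries (log2 fold change -0.74 ± 0.15, adjusted p 0.00854). *GOLS1*, *HSA32* and *DREB2C* had log2 fold changes of 0.06, 0.17 and -0.18 and did not pass the test. Sampling hour is not stated. Among 11 circadian clock genes 3 were higher and 3 lower at the adjusted p, against 5.10% and 4.52% of all genes. The morning genes *LHY* and *CCA1* stood at 0.66 ± 0.07 and 0.67 ± 0.08, *RVE8* at 0.66 ± 0.13, and *PRR7* at -0.26 ± 0.06. The part of the clock in the members' changes was not tested.

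All 5 HSP90 genes had Treated libraries above every Mock library, where 14.5% of all genes tested did. At the adjusted p, 2 of the 5 passed as higher, against 5.10% of all genes. *HSP81-3* (AT5G56010), a constitutive cytosolic HSP90 gene at chr5:22681238-22684252 (plus strand), had 310, 319 and 312 CPM in Treated libraries and 219, 209 and 231 CPM in Mock libraries. Its log2 fold change was 0.51 ± 0.07, a fold of 1.42, with an adjusted p of 0.000693. *HSP81-2* (AT5G56030), its neighbour on the same strand, had 322, 324 and 333 CPM in Treated libraries and 255, 239 and 273 CPM in Mock libraries. The log2 fold change of *HSP81-2* was 0.35 ± 0.07 (adjusted p 0.00987), and the call was lost without Mock replicate 2 (adjusted p 0.0613).

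The remaining HSP90 genes did not pass the test. *Hsp81.4*, from the same cluster, stood at a log2 fold change of 0.24 ± 0.08 (adjusted p 0.0814). *Hsp89.1*, the mitochondrial HSP90, also stood at 0.24 ± 0.07 (adjusted p 0.0657). The heat-inducible *HSP90.1* had 16.6, 17.2 and 16.2 CPM in Treated libraries and 14.1, 14.4 and 14.1 CPM in Mock libraries, a log2 fold change of 0.23 ± 0.09 (adjusted p 0.126). The chloroplast HSP90 *CR88*, found only through its curator summary, was higher at 414, 468 and 428 CPM in Treated libraries and 356, 338 and 345 CPM in Mock libraries (log2 fold change 0.33 ± 0.07, adjusted p 0.0146). Reads of the cytosolic HSP90 genes can be shared. Of the 50-base windows of the annotated transcripts, 23.9% of *HSP81-3*, 18.8% of *HSP81-2* and 18.7% of *Hsp81.4* also occur in another transcript, so how the counting split such reads could move their levels.

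*AT3G09440*, a cytosolic HSP70 gene of the cognate type, was the only member higher past both limits. The gene occupies chr3:2902355-2905947 on the minus strand. Treated libraries held 330, 313 and 325 CPM of it, and Mock libraries held 206, 205 and 224 CPM. The groups were far apart compared with their spread, at 323 ± 8.96 CPM in Treated and 212 ± 10.5 CPM in Mock seedlings (SD, n = 3 each). Its log2 fold change was 0.61 ± 0.07, a fold of 1.53, with an adjusted p of 0.000245, and it passed the adjusted p under all 14 alternatives. The gene *AT3G09430* overlaps it by 863 bases on the opposite strand, and had 1.51 CPM in Treated and 1.66 CPM in Mock libraries. The snoRNA gene *AT3G02205*, which is not in the table, shares 122 bases with it on the same strand. How reads in these overlaps were counted is not known.

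The abundant cytosolic cognate *HSC70-1* (AT5G02500) did not pass the test. It had 2152, 1903 and 2210 CPM in Treated libraries and 1929, 2052 and 2112 CPM in Mock libraries, with overlapping groups and a log2 fold change of 0.04 ± 0.09 (adjusted p 0.840). Its neighbour *Hsp70-2* stood at 0.21 ± 0.07 (adjusted p 0.0874). The heat-inducible *HSP70* (AT3G12580) was scarce at 7.12, 7.19 and 8.59 CPM in Treated libraries and 4.92, 5.43 and 5.69 CPM in Mock libraries. It was higher by a log2 fold change of 0.50 ± 0.13 (adjusted p 0.0355), with no overlap. Neither DESeq2 (adjusted p 0.0703) nor the fit with the replicate block (0.0593) called it. With 1 library left out, the call held only without Treated replicate 2. The adjusted p was 0.0625 without Treated replicate 1, 0.125 without Treated replicate 3, 0.090 without Mock replicate 1, 0.101 without Mock replicate 2 and 0.0911 without Mock replicate 3. *Hsp70b*, also heat-inducible, went the other way at -0.16 ± 0.12 (adjusted p 0.472), with its Treated libraries below its Mock libraries.

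In the chloroplast, *cpHsc70-2* (AT5G49910), a stromal HSP70 that takes part in protein import, had 417, 456 and 421 CPM in Treated libraries and 318, 322 and 315 CPM in Mock libraries. It was higher by a log2 fold change of 0.44 ± 0.07 (adjusted p 0.00216). Its sister *cpHsc70-1* had 473, 493 and 475 CPM in Treated libraries and 416, 411 and 417 CPM in Mock libraries, with a log2 fold change of 0.21 ± 0.07 and an adjusted p of 0.0750. *cpHsc70-1* did pass in DESeq2 (0.0388) and limma-voom (0.0491). The mitochondrial *mtHsc70-1* stood at 0.20 ± 0.07 (adjusted p 0.0944), and *MTHSC70-2*, matched only by its curator summary, at 0.27 ± 0.08 (adjusted p 0.0541).

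In the endoplasmic reticulum (ER), none of the 3 BiP genes, the HSP70 proteins of that compartment, passed the test. *BIP1* had 411, 437 and 408 CPM in Treated libraries and 381, 367 and 384 CPM in Mock libraries (log2 fold change 0.15 ± 0.07, adjusted p 0.224). *BIP2* stood at 0.17 ± 0.07 (adjusted p 0.147) and *BIP3*, the stress-induced BiP, at 0.03 ± 0.09. *BIP1* and *BIP2* share 22.9% and 24.8% of their 50-base windows. At the adjusted p, 5.10% of all genes tested were higher and 4.52% lower. Of 15 other genes of the unfolded protein response of the ER, 0 were higher and 1 lower by edgeR, DESeq2 and limma-voom. By unadjusted p under 0.05 also 0 were higher, where 12.1% of all genes were. The lower gene was *BZIP60*, a transcription factor that induces BiP genes, with 44.0, 48.0 and 42.1 CPM in Treated libraries and 59.4, 56.1 and 62.9 CPM in Mock libraries (log2 fold change -0.42 ± 0.08, adjusted p 0.00463). *CRT3*, *BZIP28* and *PDIL1-2*, next by p, stood at -0.19, -0.16 and 0.12 and did not pass.

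The long HSP70 proteins act as exchange factors for other HSP70 proteins. Of the 4 members, *Hsp70-15* (AT1G79920) had 192, 192 and 203 CPM in Treated libraries and 152, 164 and 162 CPM in Mock libraries. It was higher by a log2 fold change of 0.30 ± 0.07 (adjusted p 0.0168). That call was lost without Treated replicate 3 (0.0649) or Mock replicate 3 (0.069), and with the replicate block (0.0646). *HSP91*, *AT1G11660* and *AT4G16660* stood at 0.03, -0.02 and 0.06, within their spread. *Hsp70-15* shares 12.8% of its 50-base windows with *HSP91*. Over the 15 HSP70 genes, 4 were higher and 0 lower at the adjusted p, where 5.10% of all genes were higher and 4.52% lower. The median log2 fold change of the 15 was 0.17.

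*HSP60* (AT3G23990), the mitochondrial chaperonin, had 144, 137 and 139 CPM in Treated libraries and 122, 113 and 116 CPM in Mock libraries. It was higher by a log2 fold change of 0.26 ± 0.07 (adjusted p 0.0280). The call was lost without Treated replicate 1 (0.104), Treated replicate 3 (0.0694), Mock replicate 2 (0.122) or Mock replicate 3 (0.113). It was also lost with the replicate block (0.0909). *HSP60-2* and *HSP60-3A* both stood at 0.14 and did not pass. Of 4 plastid chaperonin genes, 2 were higher at the adjusted p, against 5.10% of all genes tested. By each of the other tools 3 were. *CPN60B2* stood at 0.36 ± 0.07 (adjusted p 0.00860) and *CPN60A1* at 0.25 ± 0.07 (adjusted p 0.0488), while *CPN60B* had 0.23 ± 0.07 (adjusted p 0.0679) and *CPN20* 0.01. *CPN10*, the mitochondrial co-chaperonin, stood at -0.04.

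*HSP101*, which is made mainly after heat, had 13.0, 12.6 and 11.4 CPM in Treated libraries and 8.75, 9.13 and 11.2 CPM in Mock libraries. The highest Mock library came close to the lowest Treated library, and a log2 fold change of 0.32 ± 0.12 did not pass (adjusted p 0.120). *CLPB4*, its mitochondrial relative found only through the curator summary, lay at the limit with 0.34 ± 0.10 (adjusted p 0.0498). Over the 24 HSP60, HSP70, HSP90 and HSP101 genes, 7 were higher and 0 lower at the adjusted p. Of all genes, 5.10% were higher and 4.52% lower at that limit. An unadjusted p under 0.05 gave 15 of the 24 higher and 0 lower, against 12.1% and 11.2% of all genes. A log2 fold change above 0 was seen in 22 of the 24, and in 9604 of 19615 genes tested. The median of the 24 was 0.21. Their summed level was 5956, 5783 and 6035 CPM in Treated libraries and 5082, 5177 and 5345 CPM in Mock libraries. Without *HSC70-1* the sums were 3803, 3880 and 3825 CPM in Treated libraries and 3153, 3125 and 3234 CPM in Mock libraries.

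**Figure D3:**
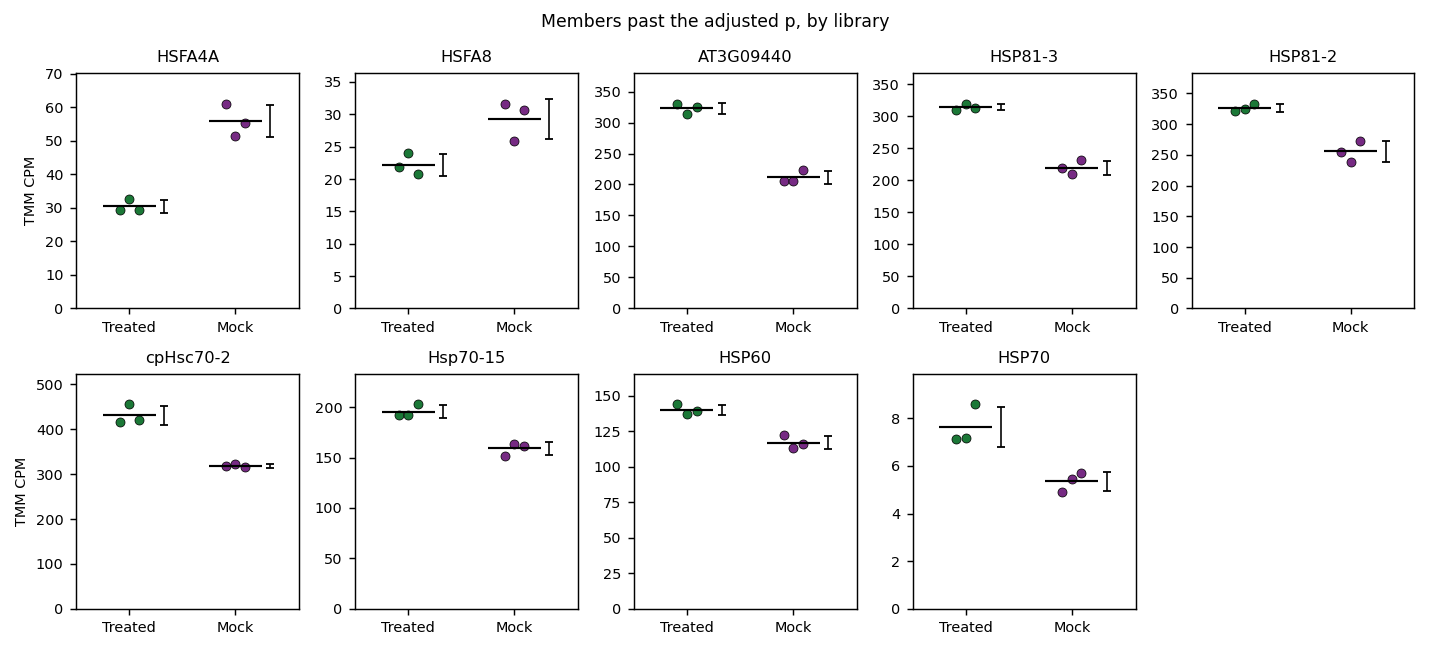
Levels in TMM CPM of the 9 members past the adjusted p, with Treated libraries left of Mock libraries and every axis starting at 0. Points are libraries, lines are means and bars are the SD over 3 libraries. *HSFA4A* and *HSFA8* sit lower in Treated libraries, and the 7 chaperone genes sit higher, from *cpHsc70-2* with 431 CPM on average in Treated libraries down to *HSP70* with 7.63 CPM.

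The HSP20-like genes showed no called difference. Of 25, 0 were higher and 0 lower at the adjusted p by edgeR's quasi-likelihood and exact tests, DESeq2 and limma-voom, and at an unadjusted p under 0.05 there were 3 higher and 2 lower, near the 12.1% and 11.2% of all genes. Their log2 fold changes ran from -0.50 (*AT5G47590*) to 0.49 (*AT1G20870*), with a median of -0.11. By the domains in the deposited descriptions, the family splits into 16 genes with an Hsp20 domain, 4 with a CS domain and 5 others. The most abundant gene per length, *AT4G02450*, a p23 co-chaperone of HSP90, had 175, 166 and 187 CPM in Treated libraries and 168, 154 and 177 CPM in Mock libraries (log2 fold change 0.08 ± 0.08). *AT5G02480* came next, with 147, 153 and 137 CPM in Treated libraries and 135, 125 and 129 CPM in Mock libraries (log2 fold change 0.17 ± 0.07, adjusted p 0.177).

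*HSP18.2* and *AT2G29500*, small heat shock proteins that rise steeply with heat, were scarce in both groups. Other genes with an Hsp20 domain reached higher levels, among them *AT5G02480*. *HSP18.2* had 1.86, 2.12 and 2.73 CPM in Treated libraries and 2.55, 1.97 and 3.15 CPM in Mock libraries (log2 fold change -0.23 ± 0.23, adjusted p 0.605). *AT2G29500* had 4.45, 4.50 and 4.81 CPM in Treated libraries and 4.38, 3.46 and 3.35 CPM in Mock libraries (log2 fold change 0.32 ± 0.16, adjusted p 0.249). Of 8 heat-induced chaperone genes listed for this purpose, 4 were in the table, *HSP101*, *HSP90.1*, *HSP70* and *HSP18.2*, and the others were not analysed here. With an SE of 0.23, a change of the size of that of *HSP90.1* was not detectable for *HSP18.2* at this depth. *ACD32.1*, a peroxisomal alpha-crystallin protein matched only by its curator summary, stood at -0.21 ± 0.08 (adjusted p 0.118).

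Per kilobase of the longest annotated transcript, *HSC70-1* stood above every other member, at 817 ± 63.8 TMM CPM per kb in Treated and 795 ± 36.4 in Mock seedlings (SD, n = 3 each). On the same scale *cpHsc70-2* and *cpHsc70-1* came next in Treated seedlings, at 175 ± 8.80 and 171 ± 4.06, and did not differ beyond their spread. In Mock seedlings *cpHsc70-1* stood at 148 ± 1.19 and *cpHsc70-2* at 129 ± 1.40, apart from each other. *HSP81-3* averaged 120 TMM CPM per kb in Treated and 84.1 in Mock seedlings, and *HSP81-2* averaged 117 in Treated and 91.7 in Mock seedlings, so *HSP81-3* was the higher of the pair in Treated means and the lower in Mock means. *AT3G09440* had 100 ± 2.78 TMM CPM per kb in Treated and 65.7 ± 3.27 in Mock seedlings. The most abundant factor per length was *HSFA4A*, at a mean of 18.4 over all 6 libraries, and *HSFA8* followed. The 2 called factors were the most abundant per length among the 11, and *HSFA2* at 0.559 was the scarcest.

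**Figure D4:**
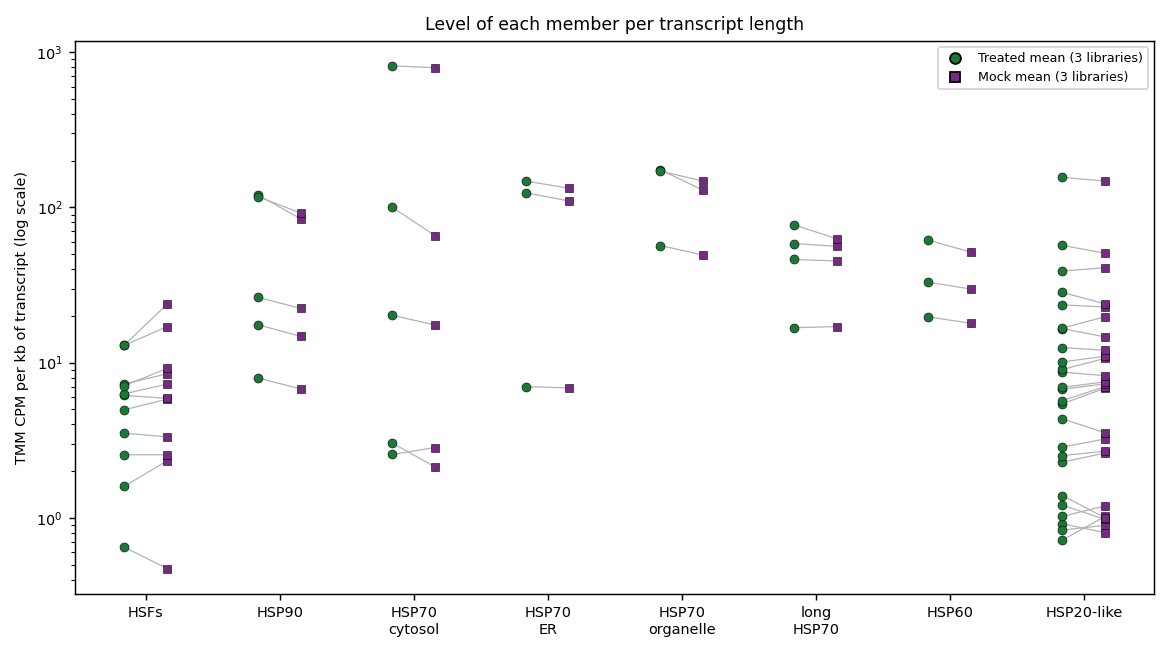
Mean level of each member in TMM CPM per kb of its longest annotated transcript (log scale), with Treated means as circles left of Mock means as squares, by family and compartment. *HSBP* and *HSP101* are not drawn. *HSC70-1* stands at the top with 817 in Treated and 795 in Mock seedlings, and the HSF with the lowest level is *HSFA2*.

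Genes that work with these chaperones were counted in the same way. Of 13 co-chaperones and regulators of HSP70 and HSP90, 0 were higher and 0 lower by edgeR's quasi-likelihood test, DESeq2 and limma-voom. The exact test of edgeR called 1 higher. At an unadjusted p under 0.05, 3 were higher and 1 lower, where 12.1% of all genes were higher and 11.2% lower. The gene nearest the limit was *BAG1*, an HSP70 regulator, with 0.29 ± 0.09 (adjusted p 0.0582). *RAR1*, which works with HSP90 in immunity, stood at -0.26, and *HOP2* and *ROF1* both at 0.17. The 110 J-domain proteins deliver clients to HSP70 and were left out of the members. At the adjusted p, 4 of them were higher and 4 lower, where 5.10% of all genes were higher and 4.52% lower. *NdhT*, a subunit of the chloroplast NDH complex, stood at 0.72 ± 0.10, *AT2G22360* at 0.48 ± 0.07 and *AT4G39960* at 0.37 ± 0.07. *J8* was lower, with 243, 337 and 237 CPM in Treated libraries and 532, 439 and 442 CPM in Mock libraries (log2 fold change -0.79 ± 0.13, adjusted p 0.00243).

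Markers of the tissues in a ground seedling were compared beside these results. Of all genes tested, 5.10% were higher and 4.52% lower at the adjusted p, and 1.73% were higher past both limits. Of 9 leaf mesophyll genes, 1 was higher, *RBCS1B* at 0.68 ± 0.16 (3 were by DESeq2 and edgeR's exact test and 2 by limma-voom), and the summed level was 31800 to 47446 CPM in Treated libraries and 31672 to 42168 CPM in Mock libraries. Of 6 root genes, 1 was higher, *SCR* at 0.31 ± 0.08, and 1 lower, *PHO1* at -0.36 ± 0.08 (2 were higher by edgeR's exact test). The summed level of the 6 was 155 to 169 CPM in Treated libraries and 175 to 185 CPM in Mock libraries. *PHO1* was the largest part of that sum in every library. All 4 root hair genes were higher past both limits, with summed levels of 12.6 to 14.4 CPM in Treated libraries and 4.28 to 7.54 CPM in Mock libraries, though DESeq2 called 2 of them. None of the 3 seed genes listed was in the table. The part of tissue proportions in the members' changes was not tested.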

How the data were processed

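RNA-Seq libraries of 3 Treated and 3 Mock samples were used, grouped by their titles. Before deposit the authors used Trimmomatic 0.36 for trimming, Rockhopper for quality, HISAT2 2.1.0 for alignment (TAIR10) and HTSeq-count for the gene counts. The labels name a TruSeq RNA kit and a directional NEBNext kit, the paper the directional one, and no strand setting of the counting is given, so whether reads of overlapping genes were separated by strand is not known. Deposited CPM equals count over library total within 3.6e-11. The deposited log2 fold change, average CPM, p-value and FDR columns hold the authors' own comparison and were not used. No column lacked a sample.

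Every gene of the table reaches a CPM of 1 in 2 or more libraries, and scarcer genes were not analysed here. Counts were fitted in edgeR 4.0.16 (R 4.3.3) with filterByExpr (1 gene removed), TMM scaling and quasi-likelihood tests without covariates. p-values were Benjamini-Hochberg adjusted over 19615 genes, with limits of 0.05 and a fold of 1.5. The steps were tested on simulated data. DESeq2 1.42.0 and limma 3.58.1 served as alternatives, beside other normalizations, filters, limits, a replicate block and each library left out. Standard errors came from the fold change and its F statistic. Windows of 50 bases of transcripts and of 300 bases before annotated starts were read from TAIR10.1 (Python 3.11.15, pandas 2.3.3, matplotlib 3.10.9).

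The members and lists were chosen with earlier results of these data known. Genes were named by a rule: every heat shock factor, members past the adjusted p, the 2 most abundant per length in each family, known heat-induced genes and up to 4 genes with the smallest p in each list. Other members are named as remaining genes of a small family, chosen after their values were seen.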

Additional observations from a re-analysis of the deposited data

How the results depend on the processing

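Under all 14 alternative normalizations, filters, tests, block and left-out libraries, 1 member was higher and 1 lower past both limits. At the adjusted p alone the counts were 7 higher and 2 lower, a fold of 2 gave 0 and 0, and the 19 genes matched by the curator summary, an alternative chosen after seeing the data, gave 0 and 0 past both limits. Across those 14 alternatives, members past the adjusted p alone and higher ran from 4 to 8, and lower ones from 1 to 3. The median log2 fold change of the members ran from 0.035 without Treated replicate 3 to 0.094 without Treated replicate 2.

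Replicate numbers are shared in the titles but are not said to pair the pots, so they were not taken as pairs. Deviations of libraries of the same number had correlations of -0.159, -0.248 and 0.126. Those of unlike number ran from -0.292 to 0.379. With 3 libraries per group, these values cannot decide whether the libraries are paired. With the replicate block, 4 members were higher and 1 lower at the adjusted p alone, and 1 and 1 past both limits, with a median of 0.063.

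Of 419 values of 30 named genes under the alternatives, 383 kept their direction and side of the adjusted p, 20 lost the call, 3 gained it and 13 changed sign. The sign changes all concerned genes not past the test. With 1 library left out, log2 fold changes ran from -0.16 to 0.16 for *HSFA1E*, from -0.05 to 0.07 for *HSFB2B*, from -0.10 to 0.18 for *HSF1*, from -0.02 to 0.17 for *HSFB4*, from -0.24 to 0.08 for *HSBP* and from -0.00 to 0.10 for *HSC70-1*. *HSFA1E* was at -0.00 with the replicate block, and *HSFB2B* at -0.00 with library size alone. The causes were not tested. Depth limits the members near 1 CPM, whose smallest count was 9.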
